A study of Chlorocebus aethiops with 12 samples.

Results

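HSD17B3 and its relatives among the hydroxysteroid dehydrogenases were followed across 12 one-colour microarrays of COS-1, an established line grown from African green monkey kidney with fibroblast morphology. HSD17B3 (NM_000197) was chosen by its response to dexamethasone (Dex), a synthetic glucocorticoid: its fitted log2 difference was 5.30 in S211A+MDFIC cells and 5.12 in S211A cells. Those fitted values are set against vehicle signals that were above background on 0 of 6 arrays, so they give neither a size nor a rank. The other 9 genes were added as its relatives. The Dex responses of HSD17B3 are therefore a description and carry no test here. The list itself was drawn up with earlier results of these data known. Whether that choice touched the p-values of the other members, HSD11B2 included, cannot be told. Members were found by accession. Of the 10 accessions listed, 9 had probes, 12 probes in all, among 24586 accessions tested. NM_005525 (HSD11B1) matched no identifier on the array and was not analysed here.

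The 4 groups, with 3 biological replicates each per the labels, were S211A+MDFIC cells under Dex, S211A+MDFIC cells under vehicle, S211A cells under Dex and S211A cells under vehicle. S211A is a form of the glucocorticoid receptor (GR) in which a serine that can be phosphorylated is replaced by alanine, and all 12 samples were transfected with it, using FuGENE6. GR is the transcription factor through which Dex acts. MDFIC was co-transfected in the 6 samples that carry its name. Dex was given at 100 nM for 6 h. No group analysed here is labelled with the unmutated receptor.

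The HSD17B enzymes interconvert keto and hydroxyl groups on steroids, and so switch androgens and oestrogens between weak and potent forms. Several of them work mainly on fatty acids or other substrates. HSD17B3 makes testosterone from androstenedione and is best known from the Leydig cells of the testis. HSD11B2 inactivates cortisol to cortisone and keeps glucocorticoids away from the mineralocorticoid receptor in the distal nephron of the kidney. HSD11B1 runs that reaction the other way. These roles are those of the human genes.

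The probes are human sequences and the RNA is from monkey cells, so the intensity of a probe also depends on how well the sequences match, and intensities of different probes were not set against each other. The files pair no gene name with the other probes, so markers of kidney or of steroid-making cells were not checked. In bulk RNA, more expressing cells and more RNA per cell cannot be told apart. The share of the 41000 probes well above background was lower on slide 1, at 67.8% to 71.7%, than on the other slides, where it lay between 76.2% and 80.6%. All S211A+MDFIC Dex arrays were on slide 3, together with S211A+MDFIC vehicle replicate 3. The first 2 replicates of S211A+MDFIC vehicle were on slide 2, with the last 2 of S211A Dex. The first S211A Dex replicate shared slide 1 with all S211A vehicle arrays. The number of arrays limits the precision.

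HSD17B3 was measured under Dex and below detection under vehicle. Its only probe, A_23_P43415, had processed intensities of 155, 137 and 115 on the S211A+MDFIC Dex arrays, against 2.69, 2.29 and 6.99 on the S211A+MDFIC vehicle arrays. In S211A cells it read 116, 121 and 116 under Dex, against 3.78, 3.47 and 3.12 under vehicle. The probe was well above background on all 6 Dex arrays and on none of the 6 vehicle arrays, and the groups lay far apart in both transfections.

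The vehicle readings were close to the local background. After subtraction of the local background, the HSD17B3 spot read 3.02, 0.21 and 7.76 on the S211A+MDFIC vehicle arrays and -0.90, -0.30 and -0.31 on the S211A vehicle arrays. The lowest processed intensity of any probe well above background was 11.7, 11.05 and 12.8 on the S211A+MDFIC vehicle arrays and 18.5, 16.9 and 15.0 on the S211A vehicle arrays. The vehicle intensities of HSD17B3 were below these limits on each array.

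**Figure D1:**
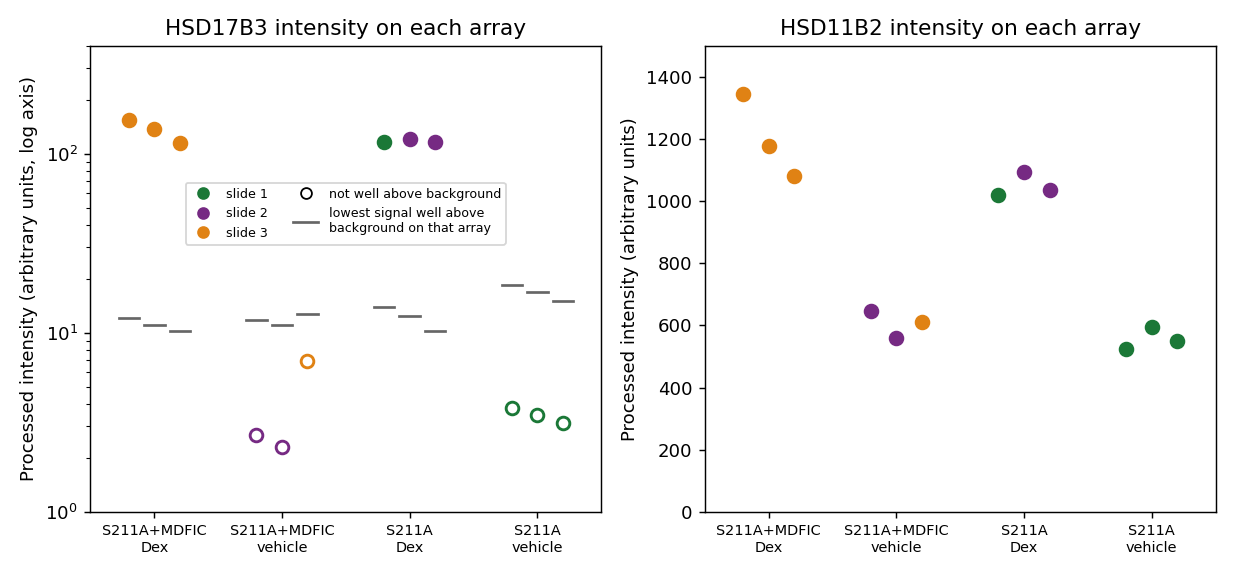
Processed intensity (arbitrary units) of HSD17B3, on a log axis, and of HSD11B2, on a linear axis, for each of the 12 arrays. A point is 1 array, coloured by slide, open points are not well above background, and grey bars give the lowest signal well above background on that array. HSD17B3 is open and below its grey bar on all 6 vehicle arrays, and HSD11B2 is filled everywhere, with the Dex arrays above the vehicle arrays.

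On the scale used for comparison, log2 of the intensity relative to the 75th percentile of its array, HSD17B3 lay at -2.85 ± 0.06 in S211A+MDFIC Dex cells and -2.94 ± 0.03 in S211A Dex cells (SD, n = 3 each). A fold against an unmeasured level has no known size. With each vehicle array set at its lowest signal well above background, HSD17B3 stood 11.7-fold higher under Dex in S211A+MDFIC cells and 7.14-fold higher in S211A cells. These are reference values and no strict lower bounds, since a probe can read above that signal without counting as well above background. Another probe did so at 12.5 and 13.3 on S211A+MDFIC vehicle replicates 1 and 2, where that signal was 11.7 and 11.05. Both reference values hold on the scale of the processed signal and depend on that lowest signal, which was higher on slide 1. Normexp background correction started from the median spot and background signals, not from the processed signal, and adds an offset of 50 to every signal. With it the fitted log2 differences were 1.74 in S211A+MDFIC cells and 1.51 in S211A cells, below the reference values of 3.55 and 2.84. The reference values were not compared with each other. The 1 Dex array of slide 1, at an intensity of 116, lay beside 3 vehicle arrays of the same slide at 3.12 to 3.78. On slide 3, 3 Dex arrays at 115 to 155 lay beside 1 vehicle array at 6.99.

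MDFIC could be compared for HSD17B3 only under Dex. The S211A+MDFIC Dex arrays lay at -2.78, -2.88 and -2.90 and the S211A Dex arrays at -2.93, -2.92 and -2.97, so that the groups did not overlap, as in 7.02% of all accessions in that direction, but were close. The difference was 0.08 (95% interval -0.62 to 0.78, limma adjusted p = 0.926), from a fit that pools the spread of all groups, the unmeasured vehicle signals included. Fitted on the 6 Dex arrays alone, the interval was -0.08 to 0.24 (limma adjusted p = 0.715; over the alternatives 0.0811 to 0.977). No slide held both groups. With slide as a block the value was -1.33, an estimate that draws on vehicle arrays below detection.

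HSD11B2 was the other member that rose with Dex, and it was well above background on all 12 arrays. Its intensities were 1346, 1178 and 1080.0 on the S211A+MDFIC Dex arrays, against 646, 558 and 611 on the S211A+MDFIC vehicle arrays. In S211A cells they were 1020.1, 1093 and 1037 under Dex, against 523, 595 and 549 under vehicle. The lowest Dex array was above the highest vehicle array in both transfections, and replicates of a group were close together. On the normalized scale the groups did not overlap either, as in 18.7% of all accessions in that direction in S211A+MDFIC cells and 14.5% in S211A cells.

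On the normalized scale HSD11B2 averaged 0.30 ± 0.06 in S211A+MDFIC Dex cells and -0.73 ± 0.03 in S211A+MDFIC vehicle cells (SD, n = 3 each), 2.04-fold higher under Dex (log2 difference 1.03 with SE 0.05, limma adjusted p = 1.73e-06). Over 25 alternatives this adjusted p ran from 6.03e-07 to 0.131. It averaged 0.22 ± 0.03 in S211A Dex cells and -0.72 ± 0.03 in S211A vehicle cells (SD, n = 3 each), 1.92-fold higher under Dex (log2 difference 0.94 with SE 0.05, limma adjusted p = 3.25e-06). Of all 24586 accessions, 328 had a larger fitted rise in S211A+MDFIC cells, 169 of them past the test, and 533 had one in S211A cells, 217 of them past the test.

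The rise of HSD11B2 was much the same within slides. It was 1.06 within slide 3, which holds 3 S211A+MDFIC Dex arrays and 1 vehicle array, and 0.93 within slide 1, which holds 1 S211A Dex array and the 3 vehicle arrays. With so few arrays the within-slide values had limma adjusted p = 0.131 on slide 3 and 0.0483 on slide 1, each resting on a single array of 1 group that is assumed to vary like the others. With slide as a block the estimates were the same 1.06 and 0.93, since each comparison then rests on the 1 slide that holds both of its groups, and the limma adjusted p of 0.000557 in S211A+MDFIC cells and 0.00063 in S211A cells borrows only the spread of the other arrays.

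No difference with MDFIC was detected for HSD11B2 (NM_000196). The levels of S211A+MDFIC and S211A cells differed by 0.07 under Dex (95% interval -0.03 to 0.18, limma adjusted p = 0.508) and by -0.01 under vehicle (-0.12 to 0.10, limma adjusted p = 0.944). The Dex response with MDFIC minus that without was 0.08 (95% interval -0.07 to 0.24, limma adjusted p = 0.683).

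**Figure D2:**
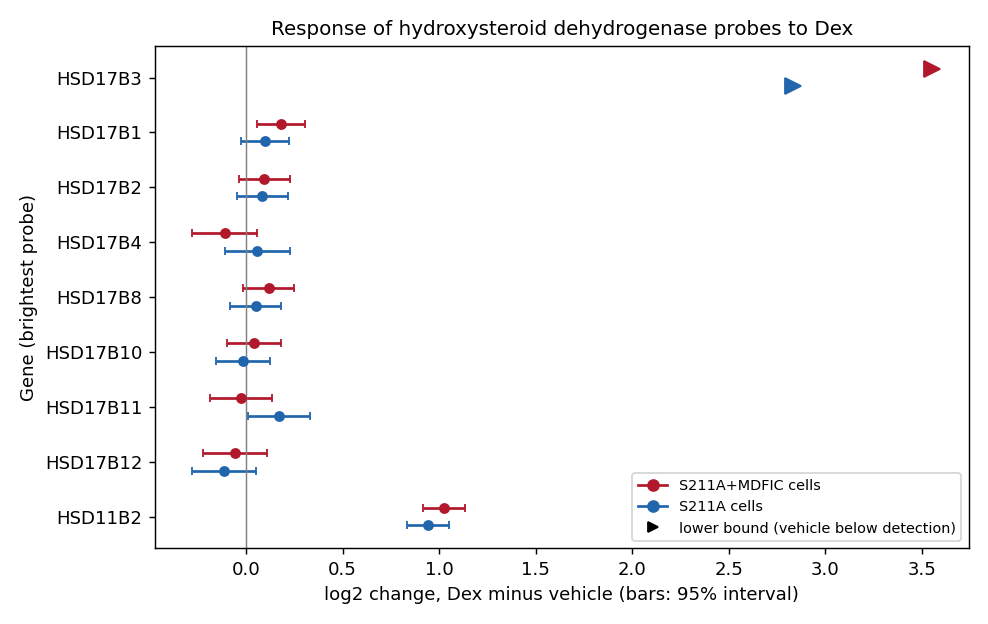
Log2 change with Dex (Dex minus vehicle) of the brightest probe of each of the 9 genes, in S211A+MDFIC cells (red) and S211A cells (blue), with 95% intervals. Triangles, called lower bounds in the key, are reference values for HSD17B3, whose vehicle signal was below detection. They set each vehicle array at its lowest signal well above background and are no strict bounds. HSD11B2 stands at 1.03 and 0.94, and the other 7 genes lie between -0.11 and 0.18.

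Apart from HSD17B3, 1 of 8 measured members rose in S211A+MDFIC cells and 0 fell, where 9.99% of all accessions were called and 6.26% rose. In S211A cells 1 of 8 rose and 0 fell, where 6.5% were called and 4.31% rose. An unadjusted limma p under 0.05 was found for 2 of the 8 in each, beside 26.6% of all accessions in S211A+MDFIC cells and 19.4% in S211A cells. In both cases the 1 called was HSD11B2, so that these counts describe a gene and not the family. The median change of the 8 was 0.07 in each transfection, beside 0.05 over all accessions in S211A+MDFIC cells and 0.02 in S211A cells.

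A pair of enzymes act on oestrogens in opposite directions, HSD17B1 (NM_000413), which reduces oestrone to oestradiol, and HSD17B2 (NM_002153), which oxidises oestradiol and testosterone. Neither passed the test for Dex. HSD17B1 read -1.50, -1.47 and -1.38 on the S211A+MDFIC Dex arrays, against -1.65, -1.64 and -1.61 on the S211A+MDFIC vehicle arrays. These groups did not overlap, as in 18.7% of all accessions in that direction, and the difference of 0.18 (95% interval 0.05 to 0.31) missed the threshold at limma adjusted p = 0.0717, with 0.0583 to 0.836 over the alternatives. Within slide 3 it was 0.16. In S211A cells the groups overlapped and the difference was 0.10 (-0.03 to 0.23, limma adjusted p = 0.373). The dimmer HSD17B1 probe gave 0.28 in S211A+MDFIC cells and 0.04 in S211A cells. Fitted with every probe on its own, neither passed in limma, where 9.55% and 6.18% of all probes were called.

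HSD17B2 changed by 0.10 with Dex in S211A+MDFIC cells (95% interval -0.04 to 0.23, limma adjusted p = 0.333) and by 0.08 in S211A cells (-0.05 to 0.22, limma adjusted p = 0.485). Its Dex and vehicle arrays overlapped in both transfections.

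The multifunctional enzymes of peroxisomes and mitochondria had small differences, none past the test. HSD17B4 (NM_000414), the peroxisomal protein that breaks down very long and branched fatty acids, had a Dex difference of -0.11 in S211A+MDFIC cells (95% interval -0.28 to 0.06) and 0.06 in S211A cells (-0.11 to 0.23). HSD17B8 (NM_014234), which takes part in mitochondrial fatty acid synthesis, differed by 0.12 (-0.01 to 0.25) and 0.05 (-0.08 to 0.18). HSD17B10 (NM_004493), which works in isoleucine breakdown and is a subunit of mitochondrial RNase P, differed by 0.04 (-0.10 to 0.18) and -0.02 (-0.16 to 0.12). For these 3 genes the Dex and vehicle arrays overlapped in both transfections.

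HSD17B11 (NM_016245) is a lipid droplet enzyme and HSD17B12 (NM_016142) is the ketoacyl reductase of fatty acid elongation. HSD17B11 had a Dex difference of -0.03 in S211A+MDFIC cells (95% interval -0.19 to 0.13). In S211A cells its Dex arrays read 1.70, 1.71 and 1.72, against 1.57, 1.62 and 1.42 on the vehicle arrays. These 2 groups did not overlap, as in 14.5% of accessions in that direction, but the difference of 0.17 did not pass (95% interval 0.01 to 0.33, limma adjusted p = 0.228; over the alternatives 0.12 to 0.9). Within slide 1 it was 0.16. The dimmer HSD17B11 probe gave -0.13 there, so that the 2 probes of this accession disagree in sign. HSD17B12 differed by -0.06 (-0.22 to 0.11) and -0.11 (-0.28 to 0.05) at its brighter probe, and by 0.002 and -0.08 at its dimmer one. Of the small differences in this paragraph and the one before, those of HSD17B8 and HSD17B10 in S211A cells and of HSD17B10, HSD17B11 and HSD17B12 in S211A+MDFIC cells changed sign under some alternatives.

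**Figure D3:**
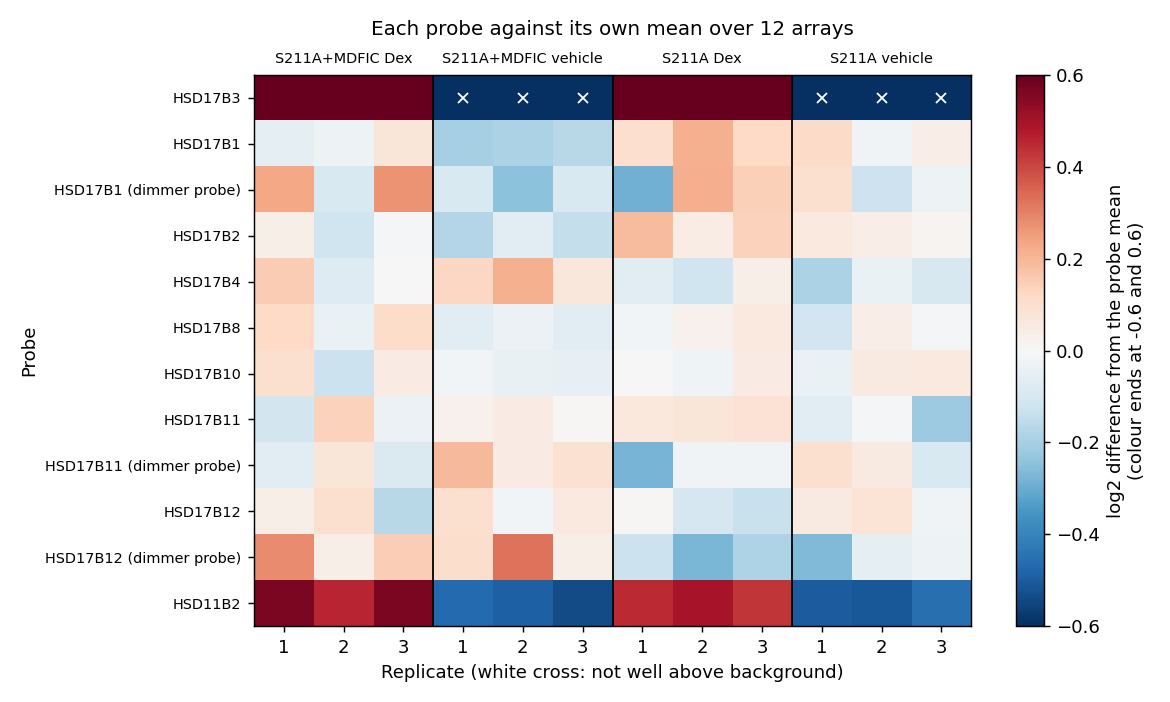
Log2 level of each of the 12 probes on each of the 12 arrays, relative to the mean of that probe (colour ends at -0.6 and 0.6, and HSD17B3 lies beyond both ends). White crosses mark HSD17B3 readings that were not well above background. HSD17B3 and HSD11B2 separate the 6 Dex arrays from the 6 vehicle arrays, and the other rows show no such split.

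The difference between the 2 Dex responses was tested for the 8 members measured on all arrays. In limma 0 of 8 passed, where 0.268% of all accessions were called, and 0 had an unadjusted p under 0.05, beside 9.85% of all accessions. The values ran from -0.20 for HSD17B11 (95% interval -0.43 to 0.03) to 0.08 for HSD11B2, with a median of 0.06 beside 0.01 over all accessions. For HSD17B3 no such difference can be measured, since its vehicle level is unknown.

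Co-transfection of MDFIC changed no member past the threshold. Under Dex, 0 of 9 members passed in limma, where 0.427% of all accessions were called, and 2 had an unadjusted p under 0.05, beside 13.5% of all accessions. Under vehicle, 0 of 8 passed, where 0.948% were called, and 3 had an unadjusted p under 0.05, beside 16.5% of all accessions. The 2 under Dex were HSD17B1 and HSD17B2, and both were also among the 3 under vehicle, beside HSD17B4.

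Among the brightest probes, that of HSD17B1 had the lowest adjusted p in both MDFIC comparisons. The S211A+MDFIC vehicle arrays read -1.65, -1.64 and -1.61, against -1.33, -1.47 and -1.41 on the S211A vehicle arrays. The difference was -0.23 (95% interval -0.36 to -0.10, limma adjusted p = 0.0914; over the alternatives 0.0632 to 0.688). Under Dex it was -0.15 (-0.28 to -0.02, limma adjusted p = 0.306). These groups did not overlap either, nor did those of HSD17B2, as in 7.96% of all accessions for the lower direction. The dimmer probe gave -0.13 under vehicle and 0.11 under Dex.

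HSD17B2 was similarly placed, at -0.16 with MDFIC under Dex (95% interval -0.29 to -0.02, limma adjusted p = 0.309) and -0.17 under vehicle (-0.30 to -0.04, limma adjusted p = 0.2). With slide as a block the vehicle value of HSD17B2 was -0.06, and that of HSD17B1 was -0.30. HSD17B4 read 2.44, 2.53 and 2.39 on the S211A+MDFIC vehicle arrays, against 2.13, 2.28 and 2.23 on the S211A vehicle arrays, a difference of 0.24 (0.07 to 0.41, limma adjusted p = 0.157). Under Dex it was 0.07 (-0.10 to 0.24). Under vehicle the groups of HSD17B1, HSD17B2, HSD17B4 and HSD17B11 did not overlap at the brightest probes. This was so in 12.7% of all accessions for the higher direction and 16.1% for the lower. At the dimmer probes the vehicle groups of HSD17B1 and HSD17B11 overlapped, and those of HSD17B12 did not.

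At HSD17B12 the probes parted. The dimmer one was 0.35 higher with MDFIC under Dex (95% interval 0.13 to 0.57) and 0.27 higher under vehicle (0.05 to 0.49). Fitted with every probe on its own, these had limma adjusted p = 0.209 and 0.213, where 0.288% and 0.752% of all probes were called. The brighter probe differed by 0.06 and 0.01. No slide held both groups of either MDFIC comparison, so no within-slide value could be had.

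**Figure D4:**
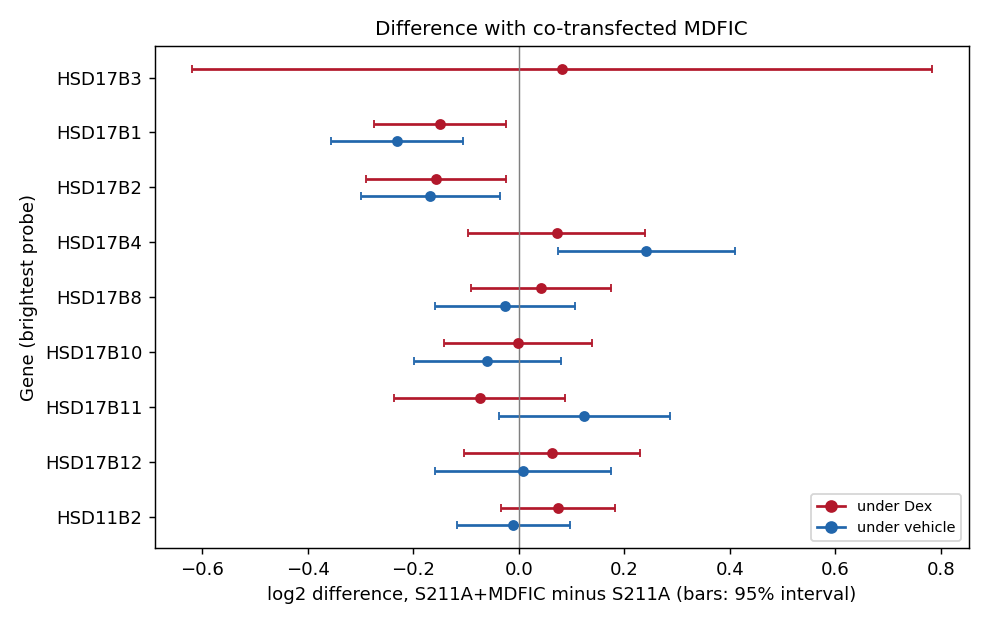
Log2 difference with MDFIC (S211A+MDFIC minus S211A) of the brightest probe of each gene, under Dex (red) and under vehicle (blue), with 95% intervals. HSD17B3 is drawn only under Dex because it was below detection under vehicle. HSD17B1 and HSD17B2 lie below 0 in both, none of the 9 genes passed the test, and HSD17B3 has the widest interval.

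The levels of HSD17B3 were compared over the 12 arrays with 21721 accessions. These had a value on every array and an identifier other than the name of their probe. Among them NM_199162 (Pearson r = 0.996) and NM_133467 (r = 0.993) were most like HSD17B3, and 541 had an r over 0.9. The 6 vehicle values of HSD17B3 in these r are readings below detection, and the gene was chosen for its Dex difference, so the order of r follows that choice. NM_199162 lay at -3.44 ± 0.14 in S211A+MDFIC Dex cells and -6.05 ± 0.38 in S211A+MDFIC vehicle cells (SD, n = 3 each), and was well above background on 6 of 6 Dex arrays and 1 of 6 vehicle arrays. NM_133467 was measured on all 12 arrays, at 2.73 ± 0.06 in S211A+MDFIC Dex cells and 1.499 ± 0.07 in S211A+MDFIC vehicle cells (SD, n = 3 each). Within the 6 Dex arrays alone the r with HSD17B3 was -0.02 for NM_199162 and -0.55 for NM_133467.

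Within the family, HSD11B2 was the most like HSD17B3 over the 12 arrays (r = 0.985). An r over 0.95 was found for 252 of the 21721 accessions. Over the 6 Dex arrays the r of HSD11B2 was 0.73, a value not set against all accessions. The other 7 members ran from -0.47 for HSD17B12 to 0.60 for HSD17B8 over the 12 arrays. All points share the scaling of their array, and the r values are given as descriptions.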

How the data were processed

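RNA labelled with Cy3 from 12 samples went onto 12 one-colour Agilent arrays of human probes. Feature Extraction 12.0.0.7 gave linear processed spot intensities, and these deposited values were the starting point. The file headers name subtraction of the local background, but the processed values are not the plain background-subtracted signal. On S211A vehicle replicate 1 the HSD17B3 spot read -0.90 after that subtraction and 3.78 as the processed intensity. The series table the authors also deposited holds identical intensity values in 45015 of 45015 rows per array, without scaling.

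From there, log2 intensities were taken, each array's 75th percentile was subtracted, 945 outlier spots were set to missing, spots of 1 probe were averaged and 1639 control spots were left out. Probes well above background on all 3 arrays of a group, with at least 2 values in each group, were kept (31230). The brightest probe stood for its accession. The 4 group means were contrasted in limma 3.58.1 (R 4.3.3) over all 12 arrays, two-sided, with Benjamini-Hochberg adjustment over all 24586 accessions, and called at an adjusted p under 0.05. Intervals are unadjusted. The fit was tested on simulated data with independent normal noise. That simulation held no slide effect and no detection limit, so it does not cover either. Figures used matplotlib 3.10.9.

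All members with probes were named whatever their values, with the 2 accessions most correlated with HSD17B3 among the 21721 compared. Members and lists were chosen with earlier results of these data known. A wider list of steroid enzymes and the cell markers needed gene names and was not analysed here. Alternatives covered background correction, scaling, filters, outliers, probes, samples in the fit, slide, replicate number and each array left out.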

Additional observations from a re-analysis of the deposited data

How the results depend on the processing

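HSD11B2 kept its direction and its call under 25 of 25 alternatives for Dex in S211A cells (log2 0.89 to 0.96) and under 24 of 25 in S211A+MDFIC cells (0.96 to 1.06). The exception was the fit within slide 3, with 4 arrays, where 0 of 8 members passed in limma and 1 had an unadjusted p under 0.05. No other count of called members changed, in any comparison. HSD17B3, dim and unmeasured under vehicle, had a fitted Dex change of 5.30 in S211A+MDFIC cells and 5.12 in S211A cells. These stood at 1.74 and 1.51 with normexp background correction of the median spot signals. The reference values of 3.55 and 2.84, taken from the processed signal, were higher. With slide as a block they stood at 4.36 and 5.13, and within slides 3 and 1 at the same values. The fitted difference between its Dex responses was 0.19, and -0.76 with slide as a block, and neither rests on measured vehicle levels. Replicate numbers gave no steady pairing of the arrays: deviations of same-numbered arrays correlated between -0.26 and 0.25. For Dex in S211A cells, 4 of 6 arrays correlated best with their own number. This held for 1 of 6 for Dex in S211A+MDFIC cells and 2 of 6 in each MDFIC comparison. With the replicate block HSD11B2 stood at 1.03 and 0.94, and 1 of 8 members was called in each Dex comparison.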
